A study of Mus musculus with 2 samples.

Results

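The oxygen sensors and subunits of the hypoxia-inducible factor (HIF) were compared between miR-181b and control B cells through 8 genes, Hif1a, Epas1, Arnt, Vhl, Hif1an, Egln1, Egln2 and Egln3. Members were the probes that the scanner files name for these genes, 14 probes of 7 genes. Vhl was added through the RefSeq accession of a probe that the files give under its older symbol Vhlh, which made 15 probes of 8 genes, among 25849 measured probes of 17591 measured genes. Probes were matched by name and accession, and the genes themselves were picked with earlier results of these data known. Messenger RNA came from splenic B lymphocytes of C57BL/6 mice, isolated by removing CD43-bearing cells and grown with 25 µg/ml of lipopolysaccharide and 10 ng/ml of interleukin-4, stimuli that drive B cell division and class switching. Cells were exposed for 20 h, with 8 µg/ml of the cationic polymer polybrene, to supernatant of either a retroviral miR181b-GFP vector or a control-GFP vector, and were sorted for green fluorescence 2 days after transduction, so both groups were stimulated, infected and sorted. The labels give 1 biological replicate per vector and do not say how many mice gave cells or which arm of the hairpin is meant by miR181b, and the promoter that drives the vector is not given in the sources used here.

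HIF is a transcription factor made of an oxygen-labile alpha subunit, encoded by Hif1a or Epas1, and a stable partner encoded by Arnt. In oxygen, the prolyl hydroxylases encoded by Egln1, Egln2 and Egln3 mark the alpha subunit, the VHL ubiquitin ligase binds the mark and the protein is degraded, while the asparaginyl hydroxylase encoded by Hif1an blocks contact with coactivators. When oxygen falls, the alpha subunit accumulates and switches on genes of glucose uptake, glycolysis and mitophagy, and the transcripts of Egln1 and Egln3 are themselves known HIF targets. Alpha subunits are controlled mainly as proteins, which an array of messenger RNA does not measure.

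Both RNAs were hybridised together on 2 Agilent arrays of 1 slide with the dyes exchanged. The miR-181b RNA was labelled with Cy5 on array 1 and with Cy3 on array 2. Both arrays repeat 1 pair of RNAs, so n below counts technical arrays, no p-value is given, and every difference describes these 2 RNA samples. Depth on an array is its signal over background: 67.2% and 67.7% of spots were well above background for the miR-181b RNA, against 66.1% and 64.7% for the control RNA. Over all measured genes the SD between the arrays' log2 ratios had a median of 0.13 and a 95th percentile of 0.49, and across genes the ratios of both arrays correlated with a Pearson r of 0.03. Spots of 1 probe on 1 array, for 170 probes with at least 5 spots, had a median SD of 0.05 log2 units.

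The 5p strand of miR-181b, the arm usually meant by that name, and the probes behind the main values are shown first. Whether the vector's product was this strand is not given in the labels. The miR-181b-5p sequence is that of RefSeq (GRCm38.p6), identical at its loci on chromosomes 1 and 2, with the seed, bases 2 to 8, in capitals.
mmu-miR-181b-5p: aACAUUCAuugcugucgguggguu
The complement of this seed, TGAATGT, was in 0 of 15 member probes and in 393 of all 41174 probes (0.954%), searched on the printed strand. Probes are 60 bases long and cover a small stretch of a transcript, so this says nothing of the rest of a message.

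Probe sequences are given as the deposited scanner files hold them, in lower case with no base marked. Egln3 and both Egln1 probes are shown because they carried the lower values, and both Epas1 probes because they disagreed.
Egln3: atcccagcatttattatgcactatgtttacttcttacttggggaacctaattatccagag
Egln1, brighter probe: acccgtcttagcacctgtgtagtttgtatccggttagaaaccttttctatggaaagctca
Egln1, dimmer probe: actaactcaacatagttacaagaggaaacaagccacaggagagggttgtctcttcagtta
Epas1, brighter probe: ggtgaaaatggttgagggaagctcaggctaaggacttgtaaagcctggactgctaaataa
Epas1, dimmer probe: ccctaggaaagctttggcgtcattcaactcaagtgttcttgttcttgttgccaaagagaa
None of the 105 pairs among the 15 member probes shared a run of 15 bases. No genome positions are given for probes, since the build of the array design is not given in the sources used here. By RefSeq the genes lie on chromosomes 12 (Egln3 and Hif1a), 8 (Egln1), 7 (Egln2), 17 (Epas1), 3 (Arnt), 6 (Vhl) and 19 (Hif1an).

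Of the 8 genes, Egln3 and Egln1 were lower in miR-181b cells by more than 1.5-fold in the main setting. There the other 6 were within 1.21-fold of the control RNA by the brightest probe. A gene was called when the mean log2 ratio of its brightest probe reached 1.5-fold and the arrays did not disagree in sign. Among all measured genes, 0.512% were called lower and 0.819% were called higher by this rule. The members gave 2 lower calls of 8 and 0 higher calls. By a stricter rule, a mean of 2-fold with each array past 1.5-fold, Egln3 alone was called, against 0.0966% of all measured genes lower and 0.00568% higher. All 15 member probes were well above background in all their measurements, and none was saturated or marked as an outlier.

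**Figure D1:**
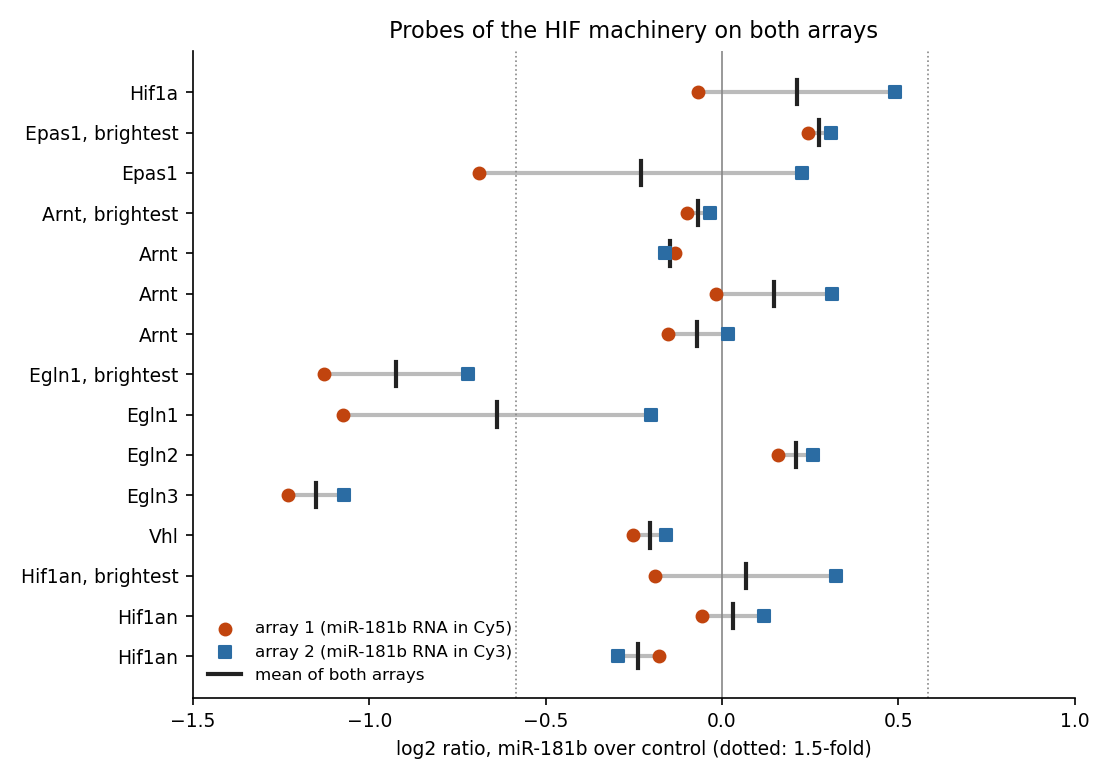
Log2 ratio of miR-181b over control (x axis) for each of the 15 member probes (rows), with array 1 as circles, array 2 as squares, the mean as a bar and dotted lines at 1.5-fold. The Egln3 probe and both Egln1 probes lie left of the rest, with means of -1.15, -0.92 and -0.64, and the other probes have means between -0.24 and 0.28.

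Egln3 encodes the prolyl hydroxylase PHD3, a sensor strongly induced by hypoxia in many cell types. Its probe had normalised intensities of 2168 and 2197 in the miR-181b RNA, against 5088 and 4623 in the control RNA. Both miR-181b values lay far below both control values, and each pair of repeats differed little. The log2 ratio was -1.23 on array 1 and -1.07 on array 2, a mean of -1.15 ± 0.11 (SD, n = 2 technical arrays), or 2.22-fold lower. It was the 14th lowest mean ratio among the 17591 measured genes.

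Egln1 encodes PHD2, the main oxygen sensor for HIF in most cells. Its brighter probe had intensities of 892 and 856 in the miR-181b RNA, against 1949 and 1409 in the control RNA. The groups did not overlap, but the control values differed more between arrays than the miR-181b values did. The log2 ratios of -1.13 and -0.72 gave a mean of -0.92 ± 0.29 (SD, n = 2 technical arrays), or 1.90-fold lower, the 25th lowest gene. The dimmer Egln1 probe had 208 and 232 in the miR-181b RNA, against 437 and 267 in the control RNA. It pointed the same way with a wider gap between arrays, at -1.07 and -0.20 with a mean of -0.64 ± 0.62 (SD, n = 2 technical arrays), and array 2 alone was short of 1.5-fold. Its SD was above the 95th percentile of all genes (0.49).

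Egln2 encodes PHD1, a sensor whose transcript is not known to be induced by hypoxia. Its probe had intensities of 3940 and 3863 in the miR-181b RNA, against 3528 and 3230 in the control RNA. The groups did not overlap and the miR-181b RNA was higher on each array, by 0.16 and 0.26 log2 units, with a mean of 0.21 ± 0.07 (SD, n = 2 technical arrays), or 1.16-fold. This direction turned, to -0.15, when arrays were centred on their median without loess, where the median of all genes itself was -0.20 and Egln2 stood at 0.06 relative to it.

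**Figure D2:**
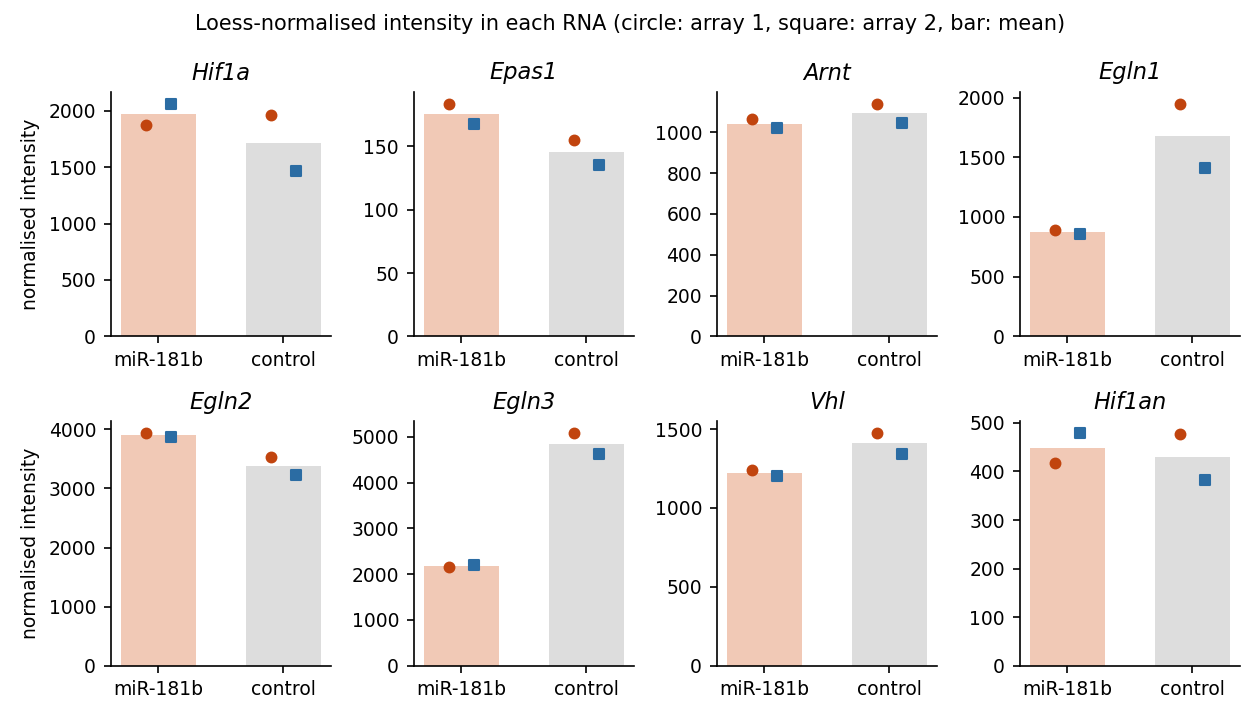
Normalised intensity in arbitrary units (y axis, linear from 0 with its own range for each gene) of the brightest probe of each member gene in the miR-181b RNA and the control RNA, with array 1 as circles, array 2 as squares and bars at their mean. Egln3 and Egln1 lie lower in the miR-181b RNA (2168 and 2197, and 892 and 856) than in the control RNA (5088 and 4623, and 1949 and 1409), and the heights of different genes cannot be set against each other because probes differ in brightness.

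Hif1a, the widely expressed alpha subunit, had intensities of 1876 and 2063 in the miR-181b RNA, against 1967 and 1468 in the control RNA. These ranges overlapped and the arrays disagreed in sign, with log2 ratios of -0.07 and 0.49. The mean was 0.21 ± 0.40 (SD, n = 2 technical arrays), so no direction can be given for Hif1a from these arrays. With median centring the mean was -0.11, or 0.09 relative to all genes.

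Epas1 encodes HIF-2 alpha, best known from endothelium, kidney and other specialised cells. Its brighter probe had intensities of 184 and 167 in the miR-181b RNA, against 155 and 135 in the control RNA. The groups did not overlap, and the mean log2 ratio was 0.28 ± 0.05 (SD, n = 2 technical arrays). This probe was dim, with a mean log2 intensity of 7.3 against a median of 9.4 over measured genes, and its ratio depended on the processing. It was 0.40 with normexp at offset 0, 0.49 with the scanner's processed signals and 0.51 in the deposited table. The dimmer probe had 156 and 119 in the miR-181b RNA, against 251 and 102 in the control RNA, which overlapped. It gave -0.69 on array 1 and 0.23 on array 2, a mean of -0.23 ± 0.65 (SD, n = 2 technical arrays). The mean of both probes was 0.02, so Epas1 has no direction that its probes share.

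Arnt encodes the shared beta subunit and was covered by 4 probes. The brightest had intensities of 1065 and 1020 in the miR-181b RNA, against 1140 and 1045 in the control RNA. These overlapped, and the mean log2 ratio was -0.07 ± 0.05 (SD, n = 2 technical arrays). Means of the 4 probes ran from -0.15 to 0.15, with 2 probes lower on both arrays and 2 of opposite sign. One of them had separate intensities, with 346 and 329 in the miR-181b RNA, against 379 and 368 in the control RNA.

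Vhl, the substrate receptor of the ligase that destroys hydroxylated alpha subunits, had intensities of 1239 and 1205 in the miR-181b RNA, against 1476 and 1345 in the control RNA. The groups did not overlap and the miR-181b RNA was lower on both arrays. The log2 ratios of -0.25 and -0.16 gave a mean of -0.20 ± 0.07 (SD, n = 2 technical arrays), or 1.15-fold lower. Across the alternatives with both arrays the Vhl ratio stayed negative, between -0.51 and -0.20.

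Hif1an encodes FIH, the asparaginyl hydroxylase, and had 3 probes. The brightest had intensities of 418 and 479 in the miR-181b RNA, against 477 and 383 in the control RNA. These overlapped and the arrays disagreed, with log2 ratios of -0.19 and 0.32 and a mean of 0.07 ± 0.36 (SD, n = 2 technical arrays). The other probes had means of 0.03 and -0.24, and the sign of the gene changed between settings. In the last of them the intensities did not overlap, with 144 and 123 in the miR-181b RNA, against 162 and 151 in the control RNA.

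Counted by gene, the brightest probe had intensities that did not overlap between the RNAs for 5 of 8 members, and this held for 29.2% of all measured genes. The lower ones were Egln3, Egln1 and Vhl, and 15.6% of all measured genes were lower in this way. Without regard to size, 4 members (Egln1, Egln3, Vhl and Arnt) were lower on both arrays, 2 (Egln2 and Epas1) were higher on both, and Hif1a and Hif1an were of opposite sign. Over all measured genes, 27.4% were lower and 24.5% higher on each of the arrays. The median ratio of the 8 members was 0.00, against -0.01 for all measured genes. The 6 members other than Egln1 and Egln3 ranged from -0.20 to 0.28 with a median of 0.14.

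**Figure D3:**
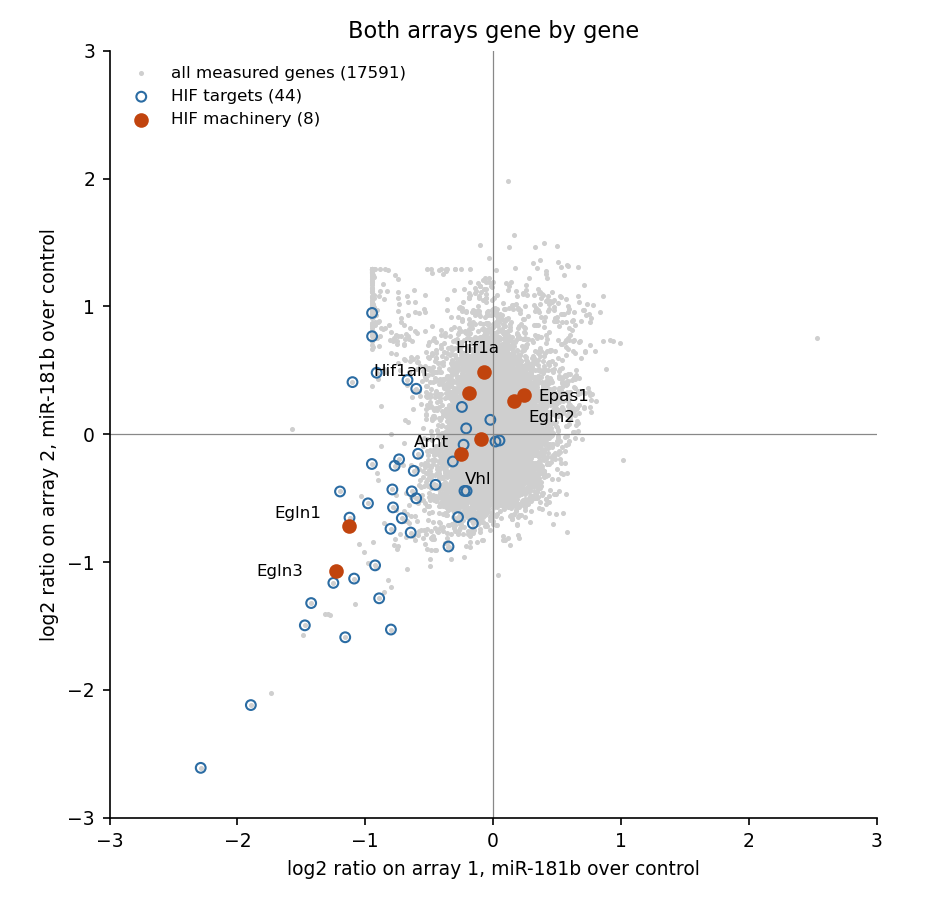
Log2 ratio of miR-181b over control on array 1 (x axis) and array 2 (y axis), with all 17591 measured genes as grey points, 44 HIF targets as open circles and the 8 members as filled circles, and 3 genes beyond the axes. Egln3 and Egln1 lie at the lower left among the HIF targets, and the other 6 members lie within the body of all genes.

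The HIF targets were set beside the machinery. They were taken from a list of 46 genes known to be induced by HIF, which did not hold Egln1, Egln3 or Cited2. Of the 46 genes 44 were measured, since no probe matched Gapdh and Nos2 was not well above background. In miR-181b cells 20 of the 44 were lower by at least 1.5-fold and 0 were higher, with a median of -0.52. Of all measured genes 0.512% were called lower and 0.819% higher by this rule. Array 1 gave a median of -0.75 and array 2 one of -0.45, and array 1 alone gave 31 lower genes and array 2 alone 17. Lower on both arrays, at any size, were 33 targets, and 11 had opposite signs. Of all measured genes 27.4% were lower on both arrays at any size, and 8471 of 17591 had opposite signs. Egln3 (-1.15) and Egln1 (-0.92) were inside the range of the targets, which ran from -2.45 to 0.05. Bnip3, a mitophagy receptor, had the lowest ratio of all measured genes (-2.45 ± 0.23), followed among targets by the lactate exporter Slc16a3 (-2.01 ± 0.16) and the pyruvate dehydrogenase kinase Pdk1 (-1.48 ± 0.02). The collagen prolyl hydroxylase P4ha2 (-1.37 ± 0.30), Ndrg1 (-1.37 ± 0.07) and the adenylate kinase Ak4 (-1.21 ± 0.06) came next (SD, n = 2 technical arrays for each). This order depended on the processing. With the scanner's processed signals P4ha2 was at -1.68 and Ak4 at -1.64, below Pdk1 at -1.55. Saturated spots were held by 7 of 44 targets, the glycolytic enzyme genes Pgk1, Ldha, Aldoa, Gpi1, Tpi1 and Pgam1 and the cytokine gene Mif, and without these 18 of 37 were lower with a median of -0.55.

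Genes that act around the sensors were counted from lists of their roles. Of 8 partners of the VHL ligase, which include the elongins Eloc and Elob, the scaffold Cul2 and the RING protein Rbx1, all 8 had opposite signs on the arrays and 0 were called. Opposite signs were held by 8471 of all 17591 measured genes. Of 19 cofactors and regulators of HIF stability, 0 were called lower and 0 higher, with a median of 0.04. Cited2, a known HIF target that competes with HIF for the coactivator p300, was at 0.34 ± 0.01, Cited4 at 0.32 ± 0.09, Os9 at 0.33 ± 0.03 and Ing4 at -0.29 ± 0.41, with -0.0002 on array 1 and -0.58 on array 2 (SD, n = 2 technical arrays for each). With median centring Cited2 turned to -0.02 and Os9 to -0.08. Cited4 was dim, with a mean log2 intensity of 7.7, and was at 0.42 with normexp at offset 0 and 0.49 with the scanner's processed signals. The coactivator Ep300 itself had -0.30 and 0.74 on arrays 1 and 2.

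Among genes that feed HIF translation through TOR, 0 of 13 were called and the median was -0.03. The translation repressor Eif4ebp1 was at -0.27 ± 0.10, the kinase Akt1 at 0.23 ± 0.01, and the phosphoinositide kinase subunits Pik3ca and Pik3cd were at -0.17 ± 0.12 and -0.15 ± 0.01. Akt1 turned to -0.16 with median centring, and Pik3cd was at 0.0034 as the mean of its probes. The authors' deposited table was matched only for probes with 1 spot. Its value for Akt1 (0.58) therefore came from another probe than the main one and cannot be set against 0.23. Of 13 other factors of the bHLH-PAS family, to which HIF belongs, 6 were measured and 0 were called. Ahrr was at 0.14 ± 0.07, Arntl at 0.13 ± 0.01 and Npas3 at -0.06 ± 0.05, and with median centring they turned to -0.06, -0.17 and 0.01. Npas3 was dim, with a mean log2 intensity of 6.6. It was at -0.16 with normexp at offset 0 and -0.33 with the scanner's processed signals. Hif3a, the third alpha subunit, had opposite signs (0.07 and -0.22). These 4 lists gave 0 calls, with medians between -0.05 and 0.04, and the targets gave 20 calls. Of all measured genes 0.512% were called lower and 0.819% higher. At these shares, 0 calls in lists this short does not set them apart from other genes.

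**Figure D4:**
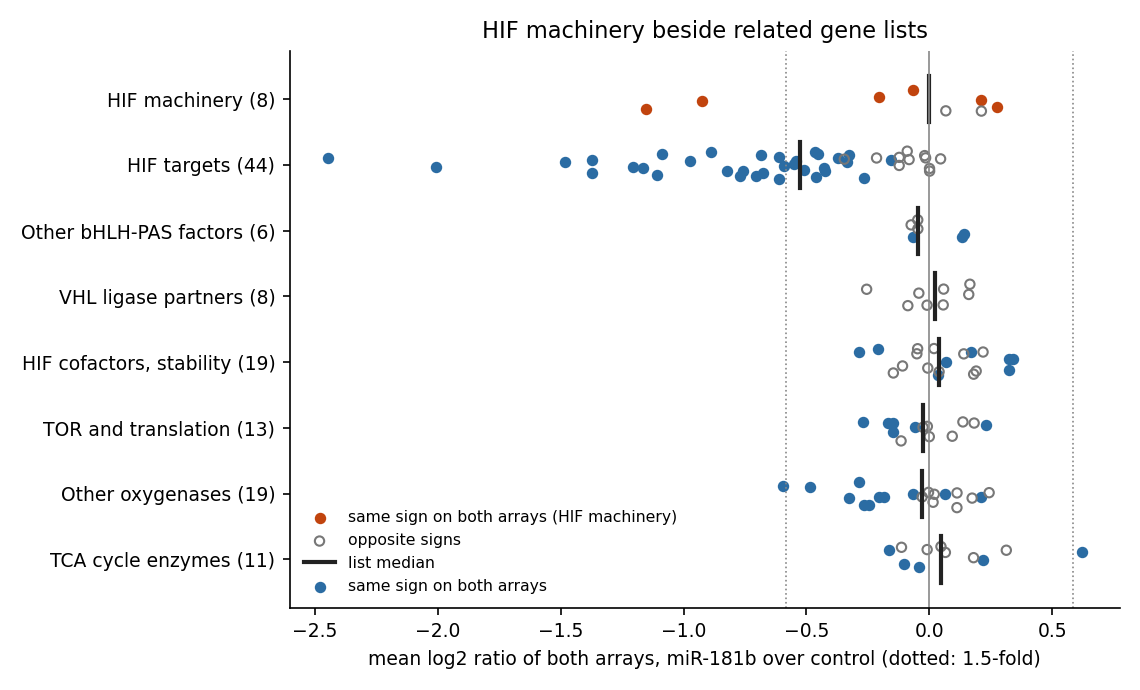
Mean log2 ratio of both arrays (x axis) for every measured gene of the machinery, the lists around it and the HIF targets (rows), filled where both arrays had the same sign and open where they did not, with a bar at each list's median and dotted lines at 1.5-fold. The targets reach from -2.45 to 0.05, Egln3 and Egln1 lie at -1.15 and -0.92, and the lists around the sensors lie mostly between the dotted lines.

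Promoters are printed because Egln3 and Egln1 were lower together, with Egln2, which was not, beside them. RefSeq windows (GRCm38.p6) of 250 bases before and 50 after the start were found for 7 of the 8 genes, with 2 windows for Egln2. The HIF core motif was searched as ACGTG or GCGTG on both strands, so that its reverse reads CACGT or CACGC, and matches are in capitals. A CACGTG gives a match on each strand.
Egln3, chr12:54203825-54204124, minus strand: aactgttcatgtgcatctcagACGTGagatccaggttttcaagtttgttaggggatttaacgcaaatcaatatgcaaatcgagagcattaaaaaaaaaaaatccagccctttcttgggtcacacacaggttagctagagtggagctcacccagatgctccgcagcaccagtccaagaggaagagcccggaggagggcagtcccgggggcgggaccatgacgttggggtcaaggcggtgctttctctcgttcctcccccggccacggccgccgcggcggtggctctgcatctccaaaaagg
Egln1, chr8:124949205-124949504, minus strand: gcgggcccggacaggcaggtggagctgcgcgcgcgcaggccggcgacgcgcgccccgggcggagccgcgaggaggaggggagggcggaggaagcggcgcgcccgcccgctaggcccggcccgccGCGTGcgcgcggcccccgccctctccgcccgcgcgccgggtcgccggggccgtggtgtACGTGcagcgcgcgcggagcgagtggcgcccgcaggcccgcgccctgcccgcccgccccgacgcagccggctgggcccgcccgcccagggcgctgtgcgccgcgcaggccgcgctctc
Egln2, first window, chr7:27166753-27167052, minus strand: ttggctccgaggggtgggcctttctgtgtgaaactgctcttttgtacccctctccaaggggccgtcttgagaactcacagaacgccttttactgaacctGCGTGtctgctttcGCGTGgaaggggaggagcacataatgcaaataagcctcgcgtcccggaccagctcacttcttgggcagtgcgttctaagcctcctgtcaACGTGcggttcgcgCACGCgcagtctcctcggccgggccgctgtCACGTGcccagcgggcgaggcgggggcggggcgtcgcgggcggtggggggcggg
The Egln3 window held 1 match, Egln1 held 2 and the first Egln2 window held 6. Hif1a had 3 matches, Arnt 1, the second Egln2 window 1, and Vhl and Hif1an 0. At least 1 match was in 43.8% of all 32851 windows of the same length and in 78.9% of 57 windows of measured HIF targets. GC content differed as well, at 86.0% for Egln1 and 54.7% for Egln3, against a median of 52.7% for all windows and 65.0% for those of targets. A match is a description of these letters and not a site of binding.

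Cell markers were read from the same arrays. The B cell markers Cd79a, Cd79b, Ms4a1, Pax5, Cd22, Blnk and Cr2 were well above background in both RNAs, and Cd79b, Ms4a1 and Blnk held saturated spots. Cd79a was called higher in miR-181b cells, with log2 ratios of 0.16 on array 1 and 1.56 on array 2. Its SD of 0.99 was above the 95th percentile of all measured genes (0.49). The complement receptor Cr2 was at 0.25 on each array. The others were lower on array 1 and higher on array 2, with -0.95 and 1.28 for Cd79b, -0.80 and 0.63 for Blnk, -0.47 and 0.74 for Cd22, -0.38 and 0.77 for Ms4a1, and -0.21 and 0.35 for Pax5. The B cell markers, apart from Cr2 and, with its wide spread, Cd79a, therefore gave no direction. Of 7 endothelial markers, a cell type known for Epas1, Cdh5, Vwf and Tie1 were not well above background, and the 4 measured had a median of 0.04. The T cell markers other than Cd8b1 were dim, with mean log2 intensities from 6.6 (Cd8a) to 7.6 (Cd3g), against a median of 9.4 over measured genes. Cd8b1 had opposite signs, at -0.04 and 0.67. All 6 T cell markers were above background, with ratios from -0.07 to 0.32 and 0 calls. All 7 macrophage markers were too, with a median of -0.02 and 0 calls, of which 3 were lower on both arrays (Lyz2 at -0.49 ± 0.10, Csf1r at -0.26 ± 0.07 and Lyz1 at -0.25 ± 0.03), 2 were higher on both (Itgam at 0.27 ± 0.14 and Cd14 at 0.06 ± 0.03) and 2 had opposite signs. The macrophage markers named here were dim as well, with mean log2 intensities from 6.7 (Lyz1) to 8.2 (Itgam). Of 5 stromal markers Col1a1 was not well above background and 4 were measured, with a median of -0.02 and Col3a1 at 0.34 ± 0.22. Of the erythroid markers Hba-a1 alone was measured, at 0.39 ± 0.03 (SD, n = 2 technical arrays for each). Fewer cells of a type and less RNA per cell cannot be told apart in such RNA, and the part of other cells in the ratios of Egln1 and Egln3 was not tested.

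**Figure D5:**
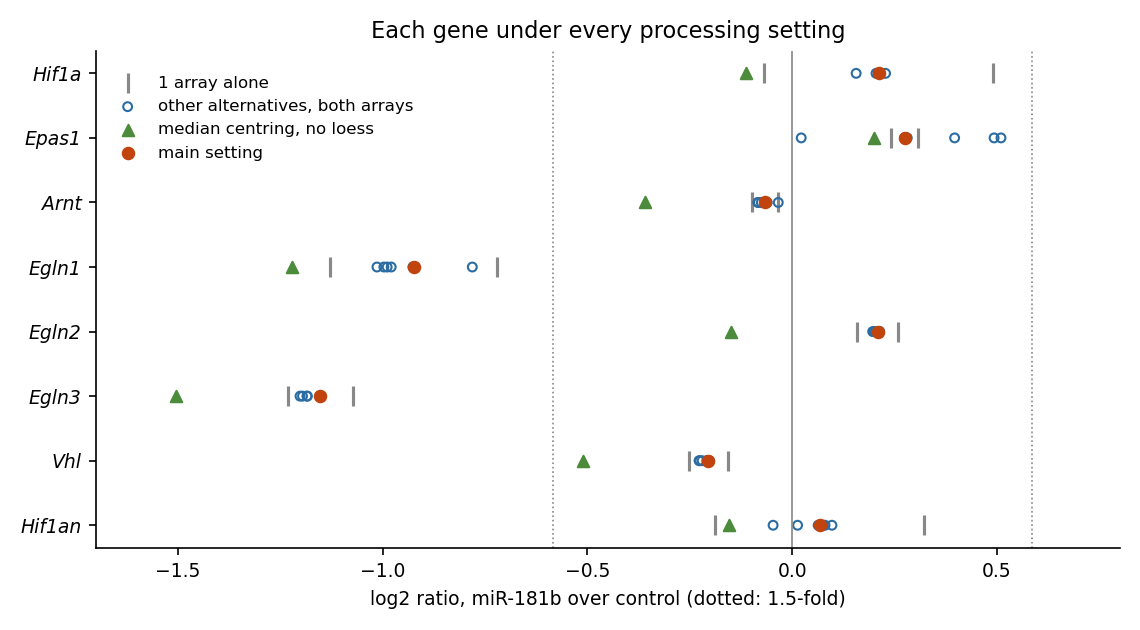
Log2 ratio of miR-181b over control (x axis) of each member gene (rows) in the main setting, under alternatives with both arrays, with median centring in place of loess, and on either array alone. Egln3 stays between -1.51 and -1.07 and Egln1 between -1.22 and -0.72, left of the 1.5-fold line in every setting, while Hif1a, Hif1an and Egln2 fall on both sides of 0.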

How the data were processed

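Both RNAs of each array were scanned with Agilent Feature Extraction 9.1.3.1, per the file headers. The deposited scanner files hold each spot's mean intensity and local background intensity, and the software's processed intensity with background subtracted and a dye trend removed. They also hold a log10 ratio with its p-value from the software's error model, per the file headers, and neither was used for a result. A value table that the authors deposited holds log2 ratios. These matched the log2 ratios of processed signals within 0.0001 for 40901 of 40901 probes with 1 spot, after constants of 0.0011 and 0.0327 were added, which settled scale, direction (miR-181b over control on both arrays) and centring. Its column medians were -0.0626 and -0.0704.

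Intensities were background-corrected by normexp (offset 50) and normalised by loess within each array with control spots at weight 0, in R 4.3.3 with limma 3.58.1, and ratios were turned to miR-181b over control. Saturated spots stayed in, outlier-marked spots did not, replicate spots were averaged within a probe, and the brightest probe stood for a gene. Measured genes were those whose probe passed the scanner's background criterion in all 4 measurements, which left out 10079 of 27670 gene names. Probes were named through a RefSeq table by accession (22951), symbol (6659) or synonym (3109), and 8455 kept the file's name. The steps were tested on simulated data. With 1 RNA per vector no test between conditions was made, and the arrays' number limits the precision. All members were named with all probes. From each list up to 4 genes with the largest mean ratio of 1 sign on both arrays were named, and 6 targets. Ep300, Hif3a and the partners of VHL were named after their values were seen. The members and lists were chosen with earlier results of these data known. Of the alternatives, 1 (scaling of the ratios between arrays) was chosen after seeing the data. A marker on the B cell list is not reported here.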

Additional observations from a re-analysis of the deposited data

How the results depend on the processing

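Egln1 and Egln3 were the lower members, with 0 higher members, under every alternative at 1.5-fold (background, normalisation, source of the ratios, probe rule, filters, flags, saturation, scaling and either array alone), and the 2-fold rule left 1 member and 9 targets lower. Median centring without loess shifted the median of all genes to -0.20 and called 908 genes lower and 6 higher, 99.3% of calls lower, against 90 lower and 144 higher, 38.5% of calls lower, in the main setting. It gave 33 lower targets, a member median of -0.26 and a target median of -0.89, and relative to all genes Egln3 stood at -1.30, Egln1 at -1.02 and Vhl at -0.31. Other counts of lower and higher genes that differed by over 1.5-fold from the main ones were 138 and 153 with normexp at offset 0, 204 and 226 with the scanner's processed signals, 189 and 240 with the deposited table, 258 and 884 on array 2 alone, 278 and 104 on array 1 alone, and 17 and 1 at 2-fold. Leaving out either array gave 17 to 31 lower targets, a target median of -0.75 to -0.45 and a member median of -0.14 to 0.11. Aquantile leaves ratios as they are by construction. Among the members, signs changed for Hif1a, Hif1an and Egln2 only. Among the other named genes, median centring turned Ahrr, Arntl, Npas3, Cited2, Os9, Akt1 and Sdhc, and the mean of all probes turned Pik3cd. Ahrr, Arntl, Cited2, Os9, Akt1 and Sdhc lay above the median of all genes both in the main setting and with median centring (-0.20). Npas3 lay above that median only with median centring. The cause of the sign changes was not tested. No paired analysis was possible because there is 1 RNA per vector, and the only pairing, of both RNAs on an array, is already in each ratio.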

Other observations

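Other oxygen-dependent enzymes that use 2-oxoglutarate, the cosubstrate of the HIF hydroxylases, were read on the same arrays, together with the thiol dioxygenase gene Ado. Of these 19 genes, all measured, 1 was called lower in miR-181b cells and 0 were called higher, with a median log2 ratio of -0.03. By the same rule 0.512% of all measured genes were called lower and 0.819% higher. The called gene was the RNA demethylase Alkbh5 (-0.59 ± 0.52), at -0.23 on array 1 and -0.96 on array 2. The histone demethylases Kdm4b (-0.48 ± 0.55), Kdm6b (-0.33 ± 0.05) and Kdm5b (-0.29 ± 0.21) were lower on both arrays without reaching the 1.5-fold mean (SD, n = 2 technical arrays for each). P4ha1 (-0.89), P4ha2 (-1.37) and Kdm3a (-0.76), enzymes of the same class, were counted among the HIF targets instead and were called lower there.

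Of 11 tricarboxylic acid cycle enzymes, which make or use 2-oxoglutarate, succinate and fumarate, 0 were called lower and 1 was called higher. The shares over all measured genes were 0.512% lower and 0.819% higher. Ogdh, a subunit of 2-oxoglutarate dehydrogenase, was at 0.62 ± 0.72, with 0.11 on array 1 and 1.13 on array 2. Sdhc was at 0.22 ± 0.31 (-0.16 with median centring), Fh1, the fumarase gene, at -0.16 ± 0.05 and Sdhd at -0.10 ± 0.14 (SD, n = 2 technical arrays for each). Sdhc had 0.0001 on array 1 and 0.44 on array 2, and Sdhd had -0.20 on array 1 and -0.0057 on array 2. The SDs of Alkbh5, Kdm4b and Ogdh were above the 95th percentile of all measured genes (0.49).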
